A study of Mus musculus with 24 samples.

Results

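A set of 10 genes of the calcium route from the endoplasmic reticulum to the nucleus was followed across 24 poly-A RNA libraries of the mouse microglial line SIM-A9. The genes were chosen by symbol: Stim1, Stim2, Orai1, Orai2, Itpr1, Itpr2, Itpr3, Rcan1, Nfatc1 and Nfatc2, which are 10 of the 54838 genes in the count table and all passed the filter that left 13116 genes for testing. The question was whether Fura-2, a fluorescent dye that binds calcium, altered their transcripts. The study exposed these microglia to probes used on neurons, with LPS as the inflammatory control.

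There were 8 groups of 3 libraries. The control group is labelled untreated. Each other group received a single agent: Fura-2; a dye called DiBASC2; a dye called Di-2-ANEPEQ; AAV (adeno-associated virus); LPS (bacterial lipopolysaccharide); (GT)6 SWCNT (single-walled carbon nanotubes with a short GT repeat named in the label); or COOH SWCNT (carboxylated nanotubes). By the shared protocol cells were moved to 270 uL of serum-free medium 2 h before the start and received 30 uL of a concentrated sample for 2 h; whether the untreated wells received a blank was not given in the sources used here. Whether Fura-2 was given as the free salt or as a cell-permeant ester, and its concentration, were not given in the sources used here. The cells are 1 line, and the labels do not say that replicates were separate cultures, so p-values measure only the spread between these samples.

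As background, a fall of calcium in the endoplasmic reticulum is sensed by STIM proteins, which then open ORAI channels in the plasma membrane, a route called store-operated calcium entry. The store is emptied by IP3 receptors when phospholipase C makes IP3. The calcium that enters activates the phosphatase calcineurin through calmodulin; calcineurin moves NFAT transcription factors into the nucleus, and RCAN1 binds and restrains calcineurin. In microglia and other myeloid cells this route is known to take part in cytokine production and phagocytosis.

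Upstream sequence is shown for the 3 genes whose transcripts moved most between groups. Each is the 250 bases before a RefSeq start of the gene (GRCm38.p6), read 5′ to 3′ on the strand of the gene, and capitals mark GGAAA, the core of the NFAT motif, or its complement TTTCC. Rcan1 is shown at both of its RefSeq starts because the counts are per gene and cannot separate transcripts from the inner and the outer start.
Rcan1 inner start, chr16:92400079-92400328, minus strand: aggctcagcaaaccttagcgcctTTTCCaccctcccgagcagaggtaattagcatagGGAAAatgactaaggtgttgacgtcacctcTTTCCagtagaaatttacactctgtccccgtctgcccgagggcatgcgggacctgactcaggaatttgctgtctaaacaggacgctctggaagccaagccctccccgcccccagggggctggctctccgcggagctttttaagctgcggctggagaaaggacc
Rcan1 outer start, chr16:92466170-92466419, minus strand: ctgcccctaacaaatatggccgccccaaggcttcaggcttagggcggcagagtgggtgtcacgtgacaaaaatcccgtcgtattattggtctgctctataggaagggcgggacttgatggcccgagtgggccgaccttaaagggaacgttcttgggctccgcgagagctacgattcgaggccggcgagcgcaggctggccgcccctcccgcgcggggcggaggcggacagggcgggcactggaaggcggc
Orai2, chr5:136170657-136170906, minus strand: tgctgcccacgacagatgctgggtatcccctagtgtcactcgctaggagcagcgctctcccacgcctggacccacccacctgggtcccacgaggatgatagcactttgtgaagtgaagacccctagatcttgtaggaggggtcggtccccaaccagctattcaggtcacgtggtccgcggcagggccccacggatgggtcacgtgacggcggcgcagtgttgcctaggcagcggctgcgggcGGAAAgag
Nfatc2 outer start, chr2:168601658-168601907, minus strand: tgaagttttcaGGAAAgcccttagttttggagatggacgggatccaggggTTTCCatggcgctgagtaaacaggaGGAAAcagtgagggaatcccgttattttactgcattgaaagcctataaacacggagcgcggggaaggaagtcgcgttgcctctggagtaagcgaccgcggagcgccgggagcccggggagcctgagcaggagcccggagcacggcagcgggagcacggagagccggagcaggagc
The inner Rcan1 window held 3 such cores and the outer window 0. Of 32851 windows of that length, 6.39% held at least 3 cores and 55.6% held at least 1, both strands counted. The inner Rcan1 window also held 1 match to TGANTCA, the AP-1 motif, which was present in 6.75% of windows (both strands; the motifs could overlap). The outer Nfatc2 window held 3 cores, a further Nfatc2 window 1, and the Orai2 window 1. The RefSeq start of Orai2 lies inside its annotated locus, which ends at chr5:136170713, so the Orai2 core is within that locus. Both Rcan1 windows also lie inside the annotated Rcan1 locus. The windows of Stim1, Stim2, Orai1, Itpr2 and Itpr3 held 0 matches to either motif. Itpr1 and Nfatc1 were not searched. A match is a description of letters only.

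Total counts per library lay between 17364272 and 29259221. The 12 microglia or macrophage markers were detected in every library, among them Csf1r at 461 to 553 CPM (read counts scaled to library size with TMM factors), but the microglial markers P2ry12, Tmem119 and Aif1 were low, between 1.54 and 5.32 CPM. Of 20 markers of neurons, astrocytes, oligodendrocytes, T cells and endothelium, 16 stayed at or under 1 CPM in every library, and Syt1, Mog, Cd8a and Cldn5 were at 0. The exceptions were the endothelial receptor gene Kdr at 90.5 to 141 CPM, the oligodendrocyte gene Mbp at 3.04 to 5.43 CPM and 2 more. These were the T cell gene Lck at 1.23 to 3.15 CPM and the neuron gene Map2 at up to 1.03 CPM. Mbp and Lck were thus about as high as those low microglial markers. Each member had at least 263 counts in every library. Genes that overlap Orai1, Itpr1 and Itpr3 in the annotation had at most 4 counts in any library.

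None of the 10 genes passed the test with Fura-2, and the Fura-2 libraries of each overlapped the controls. Against control, 0 of 10 were called at an adjusted p under 0.05 by edgeR's quasi-likelihood test, beside 0.252% of all genes tested; 0 of 10 had an unadjusted p under 0.05, and DESeq2 also called 0. The fold changes ran from −0.04 for Rcan1 to 0.10 for Nfatc1 on the log2 scale, with a median of 0.04 beside −0.00 over all genes tested. In 0 of 10 did the 3 Fura-2 libraries separate from the 3 controls, beside 16.2% of all genes. The 95% intervals, taken gene by gene and unadjusted, bound what could have been missed. Over the 10 genes they reached from −10.1% (the lower bound of Stim2) to 18.01% (the upper bound of Nfatc2). The lowest adjusted p was 0.488, for Itpr3. The background itself was small and unstable: 33 genes were called in all, 0 when control replicate 1 or 3 or Fura-2 replicate 2 or 3 was left out, 57 with control replicate 2 left out, and 106 with Fura-2 replicate 1 left out. The member count stayed at 0 in each of these.

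The values show how close the groups were. Rcan1, a transcript known to be induced by calcineurin and NFAT, stood at 60.6, 65.9 and 62.3 CPM in control and at 63.4, 61.01 and 58.9 CPM in Fura-2. Its 95% interval ran from −9.20% to 3.51%. Nfatc2 stood at 43.3, 45.9 and 42.1 CPM in control and at 41.3, 46.9 and 52.6 CPM in Fura-2, so that 2 Fura-2 libraries lay above and 1 below all controls. Orai2 was the closest, with 32.4, 29.9 and 31.2 CPM in control and 31.5, 30.6 and 31.4 CPM in Fura-2. Fura-2 was also compared with the other dyes directly. Against Di-2-ANEPEQ 0 of 10 were called, beside 0% of all genes; 0 had an unadjusted p under 0.05 and DESeq2 called 0 of the 10. Against DiBASC2 1 of 10 was called, beside 4.38% of all genes: Rcan1 was higher in Fura-2 by 0.27 ± 0.05 on the log2 scale (SE, n = 3 a group, adjusted p = 0.000171).

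**Figure D1:**
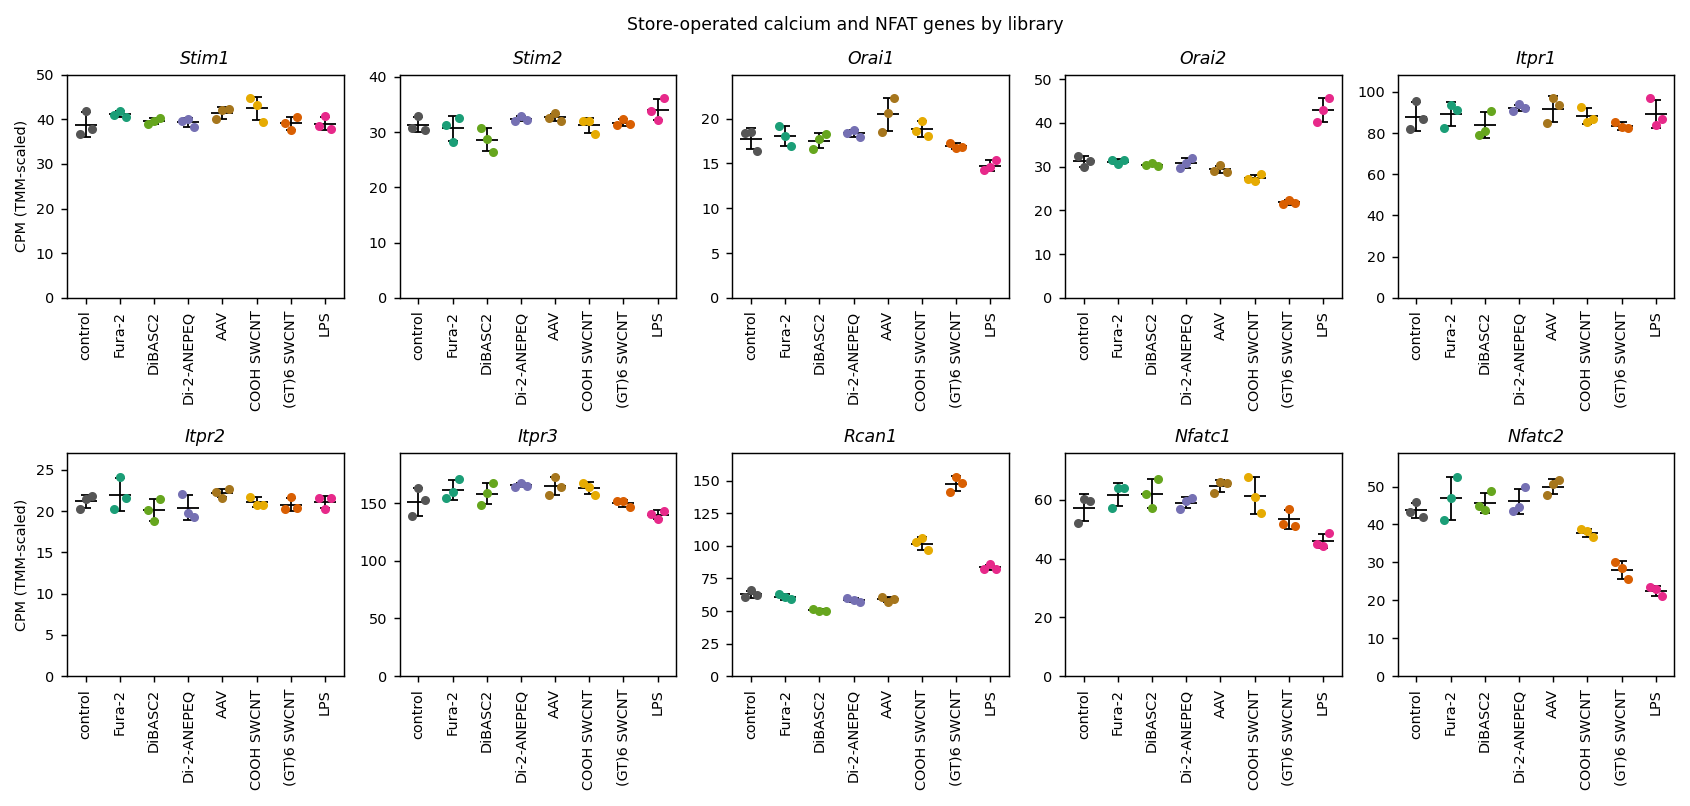
CPM of each of the 10 genes (vertical axes, from 0) in the 3 libraries of each of the 8 groups (coloured points), with the group mean and SD (black). The Fura-2 points overlap the control points in every panel, while Rcan1 is highest in (GT)6 SWCNT at 142 to 153 CPM and Nfatc2 lowest in LPS at 21.1 to 23.4 CPM.

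Across the 7 treatments the genes fell into those that were never called and those that were. Stim1, Stim2, Itpr1, Itpr2 and Itpr3 were called in 0 of the 11 comparisons made, and their highest group mean was 1.09 to 1.19 times the lowest. The spread was 2.92 times for Rcan1, 2.22 for Nfatc2, 1.97 for Orai2, 1.41 for Nfatc1 and 1.39 for Orai1. Not being called does not show an unchanged level. By the edgeR test Itpr3 had unadjusted p-values against control of 0.0122 in Di-2-ANEPEQ, 0.0153 in AAV, 0.0253 in LPS and 0.0384 in COOH SWCNT. They were over 0.05 in Fura-2, DiBASC2 and (GT)6 SWCNT. The treatments share the same 3 controls, so their values against control are not independent of each other. In bulk RNA, fewer cells of a kind and less RNA per cell cannot be told apart.

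The sensors of the store, Stim1 and Stim2, varied little. Stim1, the main sensor of a depleted store, lies at chr7:102267806-102437319 (GRCm38, plus strand). It had its lowest group mean in control, 38.8 ± 2.79 CPM (SD, n = 3), and its highest in COOH SWCNT, 42.4 ± 2.65 CPM. The difference of 0.13 ± 0.05 on the log2 scale was not called (adjusted p = 0.105), but was called without control replicate 2 (0.0233) or without COOH SWCNT replicate 3 (0.0187). Stim2, a sensor that responds to smaller losses of calcium, lies at chr5:53998499-54121057 (plus strand) and ranged from 28.6 ± 2.09 CPM in DiBASC2 to 34.1 ± 1.94 CPM in LPS. Neither end differed from control beyond the threshold, with adjusted p of 0.244 and 0.159.

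The channel genes Orai1 and Orai2 moved apart under LPS. Orai2, which encodes a pore subunit that tempers the current of ORAI1, is gene ENSMUSG00000039747.11 at chr5:136147459-136170713 (GRCm38, minus strand). It stood at 32.4, 29.9 and 31.2 CPM in control, and at 40.1, 42.9 and 45.6 CPM in LPS. In (GT)6 SWCNT it stood at 21.4, 22.4 and 21.7 CPM. The LPS libraries lay above, and the (GT)6 SWCNT libraries below, every library of the other groups. Orai2 thus rose by 0.46 ± 0.05 on the log2 scale in LPS (adjusted p = 8.98e-09) and fell by 0.51 ± 0.06 in (GT)6 SWCNT (adjusted p = 8.99e-09). In the direct test (GT)6 SWCNT was lower than LPS by 0.98 ± 0.06 (adjusted p = 7.89e-17).

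COOH SWCNT had a smaller decrease of Orai2, to 27.2, 26.7 and 28.2 CPM, all below the controls. The change of −0.19 ± 0.06 had an adjusted p of 0.0162. The call was lost without control replicate 1 (0.129) or 3 (0.0604), without COOH SWCNT replicate 1 (0.0664) or 2 (0.0558), and with no filter on low counts (0.0714). (GT)6 SWCNT was lower than COOH SWCNT by 0.33 ± 0.06 (adjusted p = 7.19e-05). The dyes and AAV had Orai2 means of 29.4 to 31.2 CPM, and each of these groups overlapped the controls.

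Orai1, the pore subunit of the classical store-operated channel, lies at chr5:123015074-123030456 (plus strand). It stood at 18.4, 18.5 and 16.4 CPM in control and at 14.3, 14.6 and 15.4 CPM in LPS. The LPS libraries lay below every other library of the series. Orai1 fell by 0.27 ± 0.08 on the log2 scale (adjusted p = 0.00769), a call lost without control replicate 2 (0.0643). Per kilobase of exon the ratio of Orai2 to Orai1 was 0.665 ± 0.0544 in control, 0.653 ± 0.0410 in Fura-2, 1.10 ± 0.0309 in LPS and 0.486 ± 0.0187 in (GT)6 SWCNT (SD, n = 3). Only in LPS was the ratio above 1 in all 3 libraries; the ratio was chosen after the values were seen and was not tested. In AAV Orai1 had its highest mean, 20.5 ± 1.87 CPM, with a change of 0.20 ± 0.07 that was not called (adjusted p = 0.0867).

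The IP3 receptors are the release channels of the store, and none of the 3 passed the test in any comparison. Itpr1, which lies at chr6:108213096-108551109 (plus strand), had group means from 83.5 ± 1.77 CPM in (GT)6 SWCNT to 92.2 ± 1.60 CPM in Di-2-ANEPEQ. Itpr2, at chr6:146108299-146502223 (minus strand), ranged from 20.1 ± 1.38 CPM in DiBASC2 to 22.2 ± 0.521 CPM in AAV. Itpr3, at chr17:27057304-27122223 (plus strand), ranged from 139.9 ± 3.83 CPM in LPS to 165 ± 1.70 CPM in Di-2-ANEPEQ, around 151 ± 12.1 CPM in control. The Itpr3 controls, at 139, 163 and 152 CPM, were themselves spread, and the LPS change of −0.11 ± 0.05 was not called (adjusted p = 0.0797). It was called with upper-quartile factors (0.0123) and without control replicate 1 (0.0131).

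Rcan1 varied most of the 10. It encodes the regulator of calcineurin and is gene ENSMUSG00000022951.16 at chr16:92391953-92470867 (minus strand). From 60.6, 65.9 and 62.3 CPM in control it reached 142, 153 and 148 CPM in (GT)6 SWCNT. The COOH SWCNT libraries held 103, 106 and 96.6 CPM. The LPS libraries held 82.6, 85.8 and 82.1 CPM. These 3 groups overlapped neither the controls nor each other. The DiBASC2 libraries, at 51.8, 50.05 and 49.9 CPM, lay below every other library.

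Rcan1 therefore rose by 1.23 ± 0.04 on the log2 scale in (GT)6 SWCNT (adjusted p = 1.54e-22), by 0.69 ± 0.04 in COOH SWCNT (adjusted p = 1.64e-14) and by 0.41 ± 0.05 in LPS (adjusted p = 3.71e-09). It fell by 0.32 ± 0.05 in DiBASC2 (adjusted p = 1.89e-05). Both differences tested among the raised groups were called: (GT)6 SWCNT exceeded COOH SWCNT by 0.54 ± 0.04 (adjusted p = 8.61e-12) and LPS by 0.82 ± 0.04 (adjusted p = 4.41e-18). Below them, control at 62.9 ± 2.71 CPM, Fura-2 at 61.1 ± 2.25, AAV at 59.1 ± 1.94 and Di-2-ANEPEQ at 58.5 ± 1.71 overlapped their neighbours in order. The Di-2-ANEPEQ libraries, at 60.1, 58.7 and 56.7 CPM, nonetheless lay below every control. By the edgeR test the Di-2-ANEPEQ change of −0.11 ± 0.05 had an unadjusted p of 0.0286 and an adjusted p of 0.236. Each called change of Rcan1 held under all 14 alternatives tried for its comparison.

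Against control, the NFAT genes of the set, Nfatc1 and Nfatc2, fell where they passed the test. Nfatc2, which encodes the factor also called NFAT1, is gene ENSMUSG00000027544.16 at chr2:168476410-168601657 (minus strand). It stood at 43.3, 45.9 and 42.1 CPM in control and at 23.4, 22.95 and 21.1 CPM in LPS. In (GT)6 SWCNT it stood at 30.2, 28.5 and 25.5 CPM. The LPS libraries were the lowest of the series, the (GT)6 SWCNT libraries came next, and neither overlapped another group. Nfatc2 fell by 0.96 ± 0.08 on the log2 scale in LPS (adjusted p = 3.67e-13) and by 0.64 ± 0.07 in (GT)6 SWCNT (adjusted p = 1.04e-08), and (GT)6 SWCNT was above LPS by 0.33 ± 0.08 (adjusted p = 0.00179).

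COOH SWCNT, at 38.7, 38.2 and 36.6 CPM of Nfatc2, lay below the controls and above (GT)6 SWCNT. Its change of −0.21 ± 0.07 from control had an adjusted p of 0.0282. The call was lost without control replicate 1 (0.0801) or 2 (0.134) and without COOH SWCNT replicate 1 (0.0525), 2 (0.0510) or 3 (0.128). The difference from (GT)6 SWCNT, −0.42 ± 0.07, was called (adjusted p = 4.54e-05). In AAV Nfatc2 was highest, at 47.7, 50.6 and 51.7 CPM, and the change of 0.19 ± 0.07 was not called (adjusted p = 0.0886).

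Nfatc1, which encodes a factor whose own promoter NFAT can act on, lies at chr18:80606205-80713071 (minus strand). It stood at 52.3, 60.4 and 59.5 CPM in control and at 45.1, 44.4 and 48.7 CPM in LPS, with no overlap. It fell by 0.32 ± 0.07 on the log2 scale (adjusted p = 0.000309). In (GT)6 SWCNT it was 53.3 ± 3.23 CPM and not called against control (−0.11 ± 0.07, adjusted p = 0.299). It was lower there than in COOH SWCNT by 0.20 ± 0.07 (adjusted p = 0.0220), although the libraries of those groups overlapped. That call was lost with length and GC trends removed (0.124), without COOH SWCNT replicate 1 (0.284) or 2 (0.0586) and without (GT)6 SWCNT replicate 1 (0.112) or 3 (0.1005). Against LPS it was higher in (GT)6 SWCNT by 0.21 ± 0.07 (adjusted p = 0.0203), lost without (GT)6 SWCNT replicate 2 (0.155) or LPS replicate 1 (0.0573) or 2 (0.0900).

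**Figure D2:**
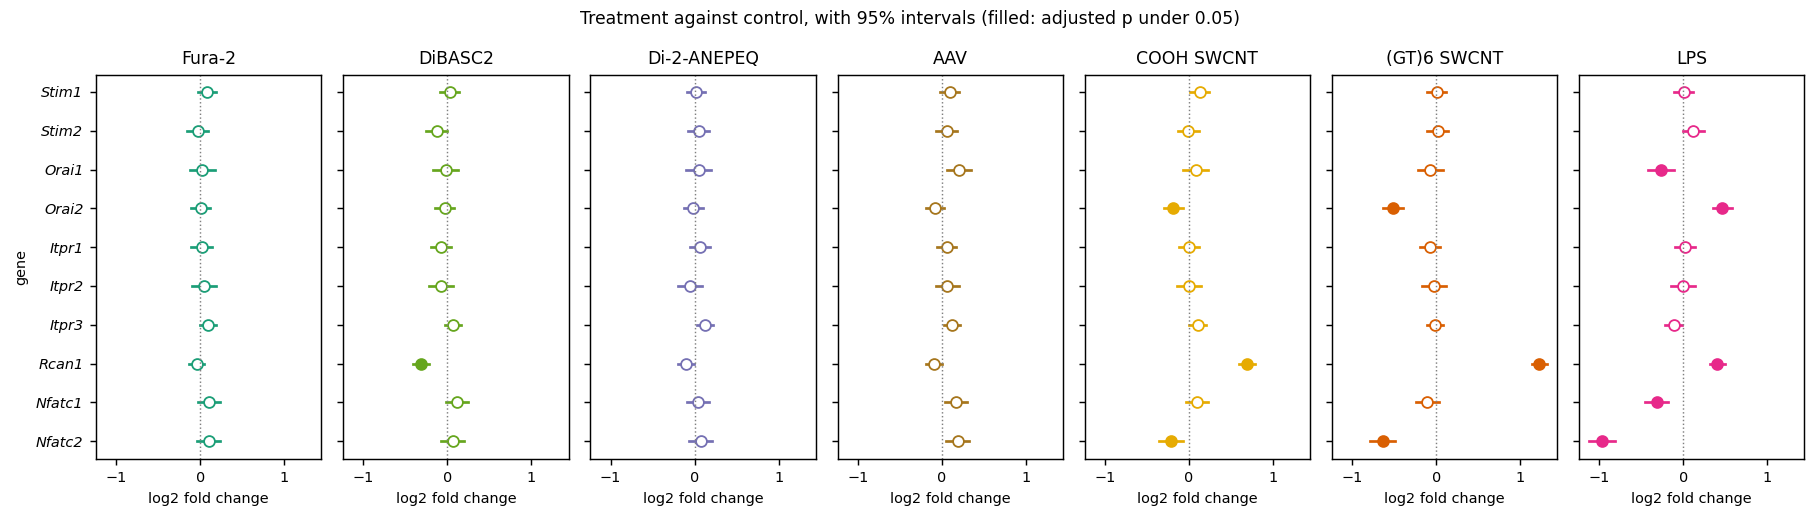
Log2 fold change of each of the 10 genes against control (horizontal axis, points) with its 95% interval (lines) in each of the 7 treatments; filled points were called at an adjusted p under 0.05. Fura-2, Di-2-ANEPEQ and AAV have no filled point, DiBASC2 has 1 (Rcan1), and Rcan1 in (GT)6 SWCNT is the farthest from 0 at 1.23.

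The counts of members called can be read against all genes. In LPS 5 of 10 were called (Orai2 and Rcan1 higher, Orai1, Nfatc1 and Nfatc2 lower), beside 28.3% of all genes tested. In (GT)6 SWCNT 3 of 10 were called (Rcan1 higher, Orai2 and Nfatc2 lower), beside 20.4%, and in COOH SWCNT the same 3 genes in the same directions, beside 20.0%. In DiBASC2 1 of 10 was called, beside 5.47%. With 10 genes these counts describe the members only. Between treatments, (GT)6 SWCNT differed from COOH SWCNT in 4 of 10, beside 21.4%, and from LPS in 4 of 10, beside 21.6%. In Di-2-ANEPEQ 0 of 10 were called by edgeR, beside 3.08%; 2 had an unadjusted p under 0.05 and DESeq2 called 0. In AAV 0 of 10 were called by edgeR, beside 5.00%; 4 had an unadjusted p under 0.05 and DESeq2 called 0. The endothelial marker list moved with 2 of these groups: its 4 genes summed to 90.8 to 101.8 CPM in LPS and 102.0 to 108.6 CPM in (GT)6 SWCNT, against 127.6 to 137.7 CPM in control and 119.0 to 141.8 CPM in the other groups. Nearly all of it was Kdr, while Cldn5 was at 0 and Pecam1 and Cdh5 stayed under 0.46 CPM; its part in the results was not tested.

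Levels can be compared between the genes only per length. Over the 24 libraries Rcan1 stood highest at 25.3 ± 10.1 CPM per kilobase of exon (SD), followed by Itpr3 at 17.4 ± 1.16. That order did not hold in every group: with DiBASC2 Rcan1 stood at 16.4 ± 0.346 and Itpr3 at 17.5 ± 1.02 CPM per kilobase (SD, n = 3). In untreated cells Rcan1 stood at 20.4 ± 0.879 against 16.8 ± 1.34 for Itpr3, and with Di-2-ANEPEQ at 19.0 ± 0.553 against 18.3 ± 0.189. Nfatc1 at 7.80 ± 0.885 and Orai1 at 7.78 ± 0.771 were within their spread of each other. Stim2 followed at 6.16 ± 0.383. Orai2 at 5.04 ± 0.937 and Itpr1 at 4.82 ± 0.294 were again within their spread. So were Stim1 at 3.87 ± 0.185 and Nfatc2 at 3.79 ± 0.923. Itpr2 was lowest at 1.43 ± 0.0798. These SDs include differences between treatments, and the pairs with Orai2 and Nfatc2 lay apart in some groups. With LPS Orai2 stood at 7.05 ± 0.451 and Itpr1 at 4.88 ± 0.362 (SD, n = 3). With (GT)6 SWCNT they stood at 3.59 ± 0.0813 and 4.56 ± 0.0968. Nfatc2 stood at 2.13 ± 0.117 and Stim1 at 3.76 ± 0.141 with LPS. With AAV they stood at 4.73 ± 0.197 and 3.995 ± 0.124. Of the relatives outside the set, Orai3, the third channel gene, averaged 16.7 CPM per kilobase, above both Orai1 and Orai2. Nfatc3 averaged 8.95, Nfat5 6.97 and Rcan3 10.8 CPM per kilobase.

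**Figure D3:**
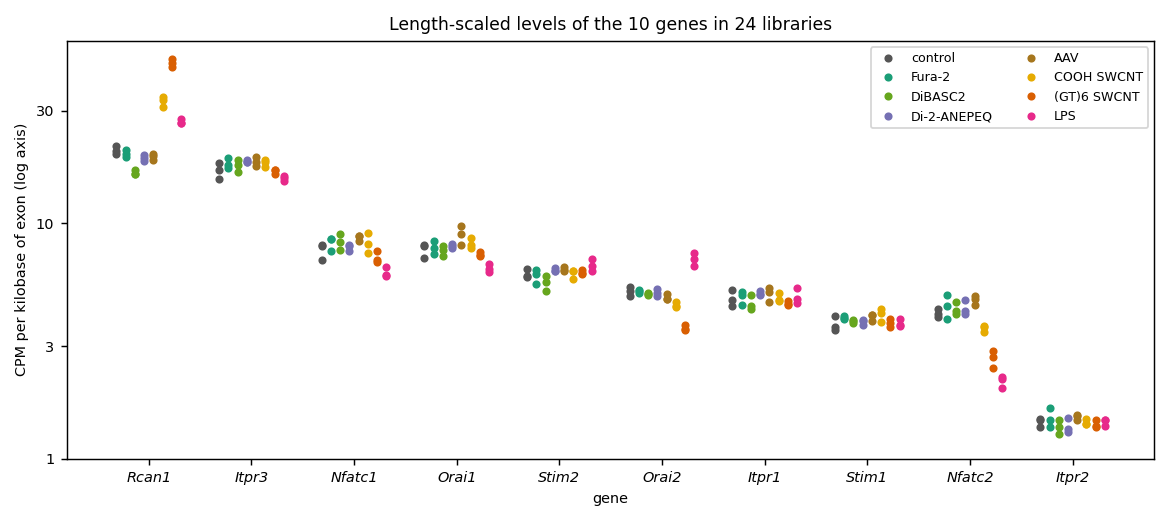
CPM per kilobase of exon (vertical log axis) of the 10 genes in the 24 libraries, ordered from Rcan1 (mean 25.3) to Itpr2 (mean 1.43); each column of points is 1 group of 3 libraries. Most genes form a flat band across groups, and Rcan1, Orai2 and Nfatc2 spread by group.

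Other genes of the pathway were read from 5 lists of 53 genes, 48 of which were tested; Trpc1, Ryr3, Nfatc4, Rcan2 and Il2 did not pass the filter. In Fura-2 0 of the 48 were called by edgeR, beside 0.252% of all genes. Of the 48, 6 had an unadjusted p under 0.05, and DESeq2 called 0. The median log2 fold change of the 48 was 0.04. The largest change among the 6 was that of Nr4a3, a nuclear receptor gene at a low level, with 1.15 ± 0.241 CPM in control and 1.90 ± 0.472 CPM in Fura-2 (0.77 ± 0.28, adjusted p = 0.280). The lowest unadjusted p, 0.00927, was that of Gsk3b, a kinase that sends NFAT out of the nucleus (0.13 ± 0.05, adjusted p = 0.275). The others were Nr4a1 (0.23 ± 0.09), Plcg1 (0.16 ± 0.06), Esyt1 (0.09 ± 0.04) and Atp2c1 (−0.08 ± 0.04); the libraries overlapped the controls for Nr4a1 and did not for the other five. These 6 are named after their values were seen. Among all 48, the Fura-2 libraries of 9 genes did not overlap the controls, beside 16.2% of all genes. In Di-2-ANEPEQ 0 of 48 were called by edgeR, beside 3.08% of all genes. There 10 had an unadjusted p under 0.05, and DESeq2 called 1. In AAV 1 of 48 was called, or 2.08%, beside 5.00% of all genes. This was Gsk3b, which rose by 0.22 ± 0.05 (adjusted p = 0.00444).

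The list of transcripts known to be induced by calcium or calcineurin divided the treatments. In Fura-2 0 of its 7 tested genes were called by edgeR, 2 had an unadjusted p under 0.05, DESeq2 called 0, and 1 was called when low counts were not filtered. The list median in Fura-2 was 0.11. In DiBASC2 5 of 7 fell and 0 rose, with a list median of −0.62. Egr3, an early growth response factor, went from 32.02 ± 2.42 CPM in control to 18.02 ± 2.32 CPM (−0.83 ± 0.08, adjusted p = 8.10e-09), and Egr2, its close relative, fell by 0.83 ± 0.08 (adjusted p = 7.65e-09). The direct comparison of Fura-2 with DiBASC2 called 6 of the 7 higher in Fura-2, beside 4.38% of all genes called in either direction. Against Di-2-ANEPEQ the changes in Fura-2 ran from 0.08 to 0.43, with 0 of 7 called by edgeR, beside 0% of all genes. There 4 had an unadjusted p under 0.05 and DESeq2 called 0. With no low-count filter, or in a fit of only those groups, 1 was called. With (GT)6 SWCNT 6 of 7 rose and Nr4a2 fell, with COOH SWCNT 6 rose and 0 fell, and with LPS 5 rose and Nr4a2 fell. The share called was 71.4% in DiBASC2, beside 5.47% of all genes, and 100% with (GT)6 SWCNT, beside 20.4%. It was 85.7% with COOH SWCNT and with LPS, beside 20.0% and 28.3%. The list was chosen with earlier results of these data known, so these shares describe its genes only.

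Within that list the largest change was that of Tnf in LPS and that of Egr3 in each nanotube group, while Ptgs2 rose in LPS and in (GT)6 SWCNT. In LPS Tnf, a cytokine gene, rose by 5.01 ± 0.05 on the log2 scale (adjusted p = 1.04e-40) and Ptgs2, which encodes a prostaglandin synthase, by 4.90 ± 0.06 (adjusted p = 3.33e-39). Egr3 rose by 1.82 ± 0.07 in (GT)6 SWCNT (adjusted p = 1.91e-21) and by 1.54 ± 0.07 in COOH SWCNT (adjusted p = 3.12e-18). Ptgs2 also rose in (GT)6 SWCNT, by 1.72 ± 0.06 (adjusted p = 5.41e-24), and Egr2 in COOH SWCNT, by 1.26 ± 0.07 (adjusted p = 2.17e-16). Egr3 was higher in (GT)6 SWCNT than in LPS by 1.65 ± 0.07 (adjusted p = 7.32e-21), and Tnf was lower there by 3.63 ± 0.05 (adjusted p = 2.28e-37). Many signals besides calcium are known to induce these transcripts.

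Of the 13 tested calcineurin and NFAT genes outside the set, LPS called 4 (1 higher), (GT)6 SWCNT 4 (2 higher) and COOH SWCNT 3 (2 higher). These are 30.8%, 30.8% and 23.1% of the list, beside 28.3%, 20.4% and 20.0% of all genes. The LPS count was 2 without LPS replicate 3. The COOH SWCNT count was 1 without COOH SWCNT replicate 1 and 5 with length and GC trends removed. Nfat5, an NFAT relative that does not depend on calcineurin, rose by 0.70 ± 0.06 with LPS (adjusted p = 7.98e-13), 0.69 ± 0.06 with (GT)6 SWCNT (adjusted p = 3.69e-12) and 0.41 ± 0.06 with COOH SWCNT (adjusted p = 1.37e-06). Rcan3, a relative of Rcan1, fell by 0.76 ± 0.05 in LPS (adjusted p = 2.40e-14) and by 0.45 ± 0.05 in (GT)6 SWCNT (adjusted p = 1.30e-08). Calm2, a calmodulin gene, fell by 0.17 ± 0.05 in COOH SWCNT (adjusted p = 0.00596), a call lost without control replicate 1 (0.0975) or COOH SWCNT replicate 1 (0.0783). The other called genes were Nfatc3 (lower in LPS by 0.20 and in (GT)6 SWCNT by 0.22), the calcineurin subunit gene Ppp3r1 (lower in LPS by 0.16), Dyrk1a (higher in (GT)6 SWCNT by 0.20) and Ppp3cc (higher in COOH SWCNT by 0.27, with overlapping libraries), named after their values were seen. In Fura-2 0 of the 13 were called by edgeR, 1 had an unadjusted p under 0.05, and DESeq2 called 0.

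Of the 9 genes listed as makers or breakers of IP3, LPS called 2, (GT)6 SWCNT 3 and COOH SWCNT 2. These are 22.2%, 33.3% and 22.2% of the list, beside 28.3%, 20.4% and 20.0% of all genes. Itpkc, an IP3 kinase, rose by 0.87 ± 0.08 in LPS (adjusted p = 4.85e-11), 0.35 ± 0.09 in (GT)6 SWCNT (adjusted p = 0.00224) and 0.38 ± 0.08 in COOH SWCNT (adjusted p = 0.00115). Inpp5d, a lipid phosphatase gene, fell by 0.29 ± 0.05 in LPS (adjusted p = 9.95e-06) and by 0.19 ± 0.05 in (GT)6 SWCNT (adjusted p = 0.00292). It is counted in this list although its product acts on a lipid and not on IP3. With upper-quartile factors the LPS count was 4. Inpp5a, whose product degrades IP3, rose by 0.22 ± 0.07 in (GT)6 SWCNT (adjusted p = 0.0127). Itpkb, another IP3 kinase, rose by 0.21 ± 0.05 in COOH SWCNT (adjusted p = 0.00147), lost with length and GC trends removed (0.0709).

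Of the 11 pump and store genes, DiBASC2 called 1, LPS 1, (GT)6 SWCNT 2 and COOH SWCNT 2. These are 9.09%, 9.09%, 18.2% and 18.2% of the list, beside 5.47%, 28.3%, 20.4% and 20.0% of all genes. Atp2b1, which exports calcium through the plasma membrane, rose by 0.16 ± 0.04 in LPS (adjusted p = 0.00294), 0.32 ± 0.04 in (GT)6 SWCNT (adjusted p = 1.91e-07) and 0.24 ± 0.04 in COOH SWCNT (adjusted p = 3.10e-05). Atp2a2, the SERCA pump that fills the store, fell by 0.18 ± 0.04 in DiBASC2 (adjusted p = 0.00378) and rose by 0.16 ± 0.04 in (GT)6 SWCNT (adjusted p = 0.00158). Its rise in COOH SWCNT, 0.11 ± 0.04 (adjusted p = 0.0478), was lost without any 1 of the controls (0.0631 to 0.0822) and without COOH SWCNT replicate 1 (0.195) or 2 (0.104). The COOH SWCNT count was 1 without each of those 5 libraries, and the LPS count was 2 without LPS replicate 2 and 3 with upper-quartile factors or with length and GC trends removed.

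Of the 8 tested partners of STIM and ORAI, edgeR called 2 with (GT)6 SWCNT, 2 with COOH SWCNT and 0 with LPS, where 1 had an unadjusted p under 0.05, DESeq2 called 0 and upper-quartile factors gave 3. The nanotube counts are 25% of the list each, beside 20.4% of all genes with (GT)6 SWCNT and 20.0% with COOH SWCNT, and the LPS count stands beside 28.3%. Esyt2, a tether between the endoplasmic reticulum and the plasma membrane, rose by 0.29 ± 0.04 in (GT)6 SWCNT (adjusted p = 3.03e-06). Stimate, which encodes a STIM activator of the reticulum, fell by 0.29 ± 0.10 there (adjusted p = 0.0374) with overlapping libraries. The rise of Esyt2 in COOH SWCNT, 0.13 ± 0.04 (adjusted p = 0.0329), was lost without control replicate 1 (0.0510) or 3 (0.118) and without COOH SWCNT replicate 2 (0.0583) or 3 (0.0732). Saraf, which turns store-operated entry off, fell by 0.14 ± 0.04 in COOH SWCNT (adjusted p = 0.0177), lost without control replicate 3 (0.134) or COOH SWCNT replicate 1 (0.108). The (GT)6 SWCNT count was 1 without control replicate 1 or 3 or (GT)6 SWCNT replicate 1 or 2, and 1 with the replicate number as a block, where Stimate was not called. The COOH SWCNT count was 1 without control replicate 1 or COOH SWCNT replicate 1 or 2 and 0 without control replicate 3. With no filter on low counts it was 0 (Saraf 0.0874, Esyt2 0.0578), and with length and GC trends removed it was 1 (Esyt2 0.124).

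**Figure D4:**
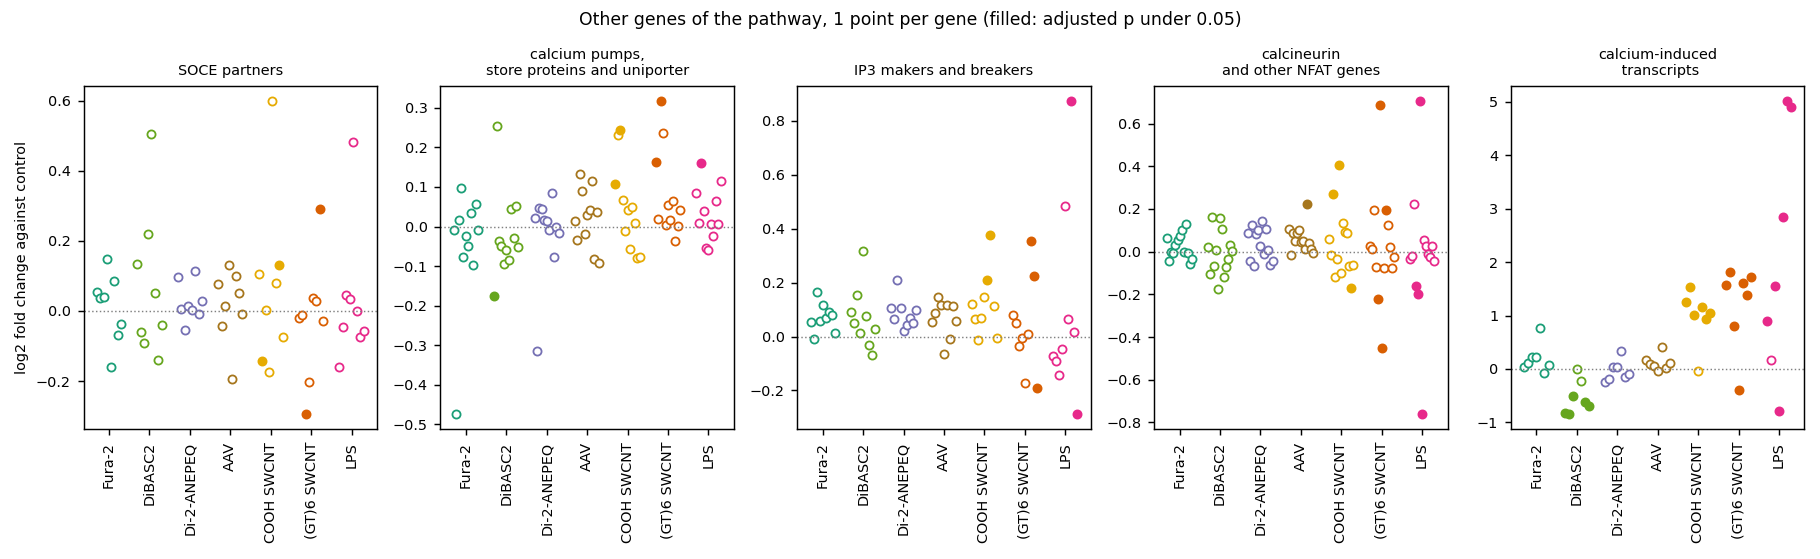
Log2 fold change against control (vertical axes, scaled per panel) of the 48 tested genes of the 5 lists, 1 point per gene and treatment; filled points were called at an adjusted p under 0.05. Fura-2 has 0 filled points in all panels, and the calcium-induced transcripts are filled below 0 in DiBASC2 (5 of 7) and mostly above 0 in the nanotube and LPS groups.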

How the data were processed

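The authors deposited 1 table of raw read counts per gene for 24 libraries (8 groups of 3, from the sample titles). STAR 2.5.4b and build GRCm38.p6 are named per the submitters' processing notes; the counting tool, its strand setting and the annotation are not given in the sources used here. Symbols, positions and exon lengths came from GENCODE M21 (GRCm38), which matched 54809 of 54838 identifiers without and 53947 with the version suffix. The labels spell DiBASC2 and Di-2-ANEPEQ in several ways; groups came from the titles, and Di-2-ANEPEQ is spelled after the sample descriptions. No column was left out.

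Counts were analysed with edgeR 4.0.16 in R 4.3.3: filterByExpr (13116 genes kept), TMM factors, and 1 quasi-likelihood fit of 8 group means to 24 libraries (16 residual degrees of freedom; biological coefficient of variation 4.12%). The 11 contrasts were tested two-sided with Benjamini-Hochberg adjustment over all genes tested, called at an adjusted p under 0.05. A standard error is the absolute log2 fold change divided by the square root of F. The procedure was tested on simulated data. Depth, 17364272 to 29259221 counts, gave 263 to 5040 counts per member and library. Alternatives were other size factors, filters, tests (DESeq2 1.42.0), fits, length and GC trends removed, and single libraries left out.

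The members and lists were chosen with earlier results of these data known. Named genes were all members; per list and treatment up to 2 called genes with the largest change and no overlap between libraries; and, for members called against control changed by 0.5 or more on the log2 scale, the 3 most correlated tested genes with a mean of at least 5 CPM. Sequences were taken from RefSeq (GRCm38.p6), which had entries for 8 members.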

Additional observations from a re-analysis of the deposited data

How the results depend on the processing

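The count of members called in Fura-2 was 0 under every alternative run, and in DiBASC2, (GT)6 SWCNT and Fura-2 against DiBASC2 leaving out single libraries kept it at 1, 3 and 1. In AAV it was 0, against 2 with no low-count filter (Nfatc1 and Nfatc2), 2 in a fit of only those groups (Nfatc1 and Nfatc2) and 1 with length and GC trends removed (Orai1); leaving out libraries gave 0 to 1 (Orai1 without AAV replicate 1, Itpr3 without control replicate 2). In Di-2-ANEPEQ leaving out libraries gave 0 to 1 (Itpr3 without control replicate 2), and in COOH SWCNT 1 to 4 (1 without control replicate 1 or COOH SWCNT replicate 1 or 2; 4 without control replicate 2). No member or named gene that was called reversed. Of 880 fold changes of the members under other settings 867 kept their call, 2 lost it and 11 gained it; of 660 with a library left out 635 kept, 17 lost and 8 gained it; 27 and 64 uncalled values changed sign.

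Counts over all genes moved more. Fura-2 called 33, against 188 with no low-count filter, 60 with length and GC trends removed, 80 in a fit of only those groups and 86 with DESeq2. DiBASC2 called 717, against 1253 with length and GC trends removed, 333 without control replicate 1 and 459 without DiBASC2 replicate 3. Di-2-ANEPEQ called 404, against 814 in a fit of only those groups, 120 and 165 without control replicates 1 and 3, and 129 and 190 without its own replicates 2 and 3. AAV called 656, against 273 and 157 without control replicates 1 and 3 and 177 and 278 without its own replicates 2 and 3. Fura-2 against DiBASC2 called 574, against 875 with length and GC trends removed, 367 without DiBASC2 replicate 2 and 375 without Fura-2 replicate 2. Fura-2 against Di-2-ANEPEQ called 0, against 67 with no low-count filter, 21 in a fit of only those groups, and 1 with DESeq2 or without Fura-2 replicate 3. The cause was not tested.

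Upper-quartile factors moved the share of called genes that were higher from 33.3% to 54.9% in DiBASC2, 48.7% to 35.4% in LPS, 36.7% to 26.3% in AAV, 55.6% to 44.4% in (GT)6 SWCNT against COOH SWCNT, 44.6% to 57.5% in (GT)6 SWCNT against LPS and 68.8% to 49.4% in Fura-2 against DiBASC2. Removing length and GC trends moved it to 19.2% in DiBASC2, 51.6% in AAV, 34.5% from 46.9% in COOH SWCNT and 70.3% in (GT)6 SWCNT against COOH SWCNT.

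Samples of the same replicate number did not deviate together over all genes tested. Of such pairs 0 of 84 correlated over 0.1, beside 2 of 168 pairs of different number. Of 24 libraries 5 correlated best with their own number. A shared batch that moved few genes would not show in these correlations and was not tested. With the replicate number as a block, Fura-2 called 0 members (22 genes in all), no member call changed, and Atp2a2 in COOH SWCNT (0.0569) and Stimate in (GT)6 SWCNT lost their calls. The COOH SWCNT count of calcineurin and NFAT genes went from 3 to 2, and the Di-2-ANEPEQ count of IP3 genes from 0 to 1. With 3 libraries a group, small changes of the members could be missed. The intervals given are for single genes and unadjusted, so they are not the limit of what would be called. In AAV the interval of Orai1, 4.12% to 27.3%, left out 0, yet Orai1 was not called.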

Other observations

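The genes whose 8 group means of log2 CPM followed those of Rcan1, Orai2 and Nfatc2 most closely were read from 9482 tested genes with a mean of at least 5 CPM. The correlations are descriptions over 8 points that share libraries and controls. For Rcan1 they were Pla2g5, a secreted phospholipase gene (r = 0.993), Gpr137b (r = 0.992) and Slc20a1, a phosphate transporter gene (r = 0.992). Slc20a1 stood at 159 ± 12.1 CPM in control (SD, n = 3), 156 ± 2.20 in Fura-2, 127 ± 5.26 in DiBASC2, 215 ± 8.66 in LPS, 280 ± 8.59 in COOH SWCNT and 356 ± 10.98 in (GT)6 SWCNT.

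For Orai2 they were Lmo4 (r = 0.987), Rcsd1 (r = 0.983) and Dse (r = 0.978). Rcsd1 stood at 51.6 ± 1.11 CPM in control, 74.1 ± 2.07 in LPS and 40.4 ± 0.437 in (GT)6 SWCNT. For Nfatc2 they were Zfp36l2, which encodes a factor that speeds the decay of mRNA (r = 0.997), Sipa1 (r = 0.993) and Prr12 (r = 0.993). Zfp36l2 stood at 81.6 ± 3.56 CPM in control, 88.7 ± 2.86 in Fura-2, 56.2 ± 4.25 in (GT)6 SWCNT and 45.2 ± 1.72 in LPS.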
